A study of Mus musculus with 2 samples.

Results

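The Slit, Robo and srGAP genes encode a ligand, receptor and effector system that steers growing axons and migrating neurons. Slits are large secreted proteins, Robo receptors of the immunoglobulin superfamily bind them at the cell surface, and srGAPs bind the cytoplasmic part of Robo and act on small GTPases. N6-methyladenosine (m6A) is set in nascent mRNA by the METTL3 and METTL14 complex, chiefly at the consensus DRACH, where D is A, G or T, R is A or G, and H is A, C or T. It is found mostly in the last exon and near the stop codon. The 9 genes described here are Slit1, Slit2, Slit3, Robo1, Robo2, Robo3, Srgap1, Srgap2 and Srgap3. They were chosen by name, with earlier results of these data known. Their sites are the listed positions inside each gene's GENCODE M21 interval, on the gene's strand. In cerebellum they accounted for 267 of 79355 listed sites, in cerebrum for 684 of 188295, and in either list for 824 of 219409 positions.

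GLORI, in which glyoxal and nitrite deaminate unmethylated adenosines so that only m6A is still read as A, was applied to poly(A)+ RNA of 2 tissues, with 1 library each. Both came from 1 female F1r mouse at P0 (day 0 after birth), the hybrid of a C57 mother and a PWK father, and every cell of these tissues therefore carries 1 genome of each strain. The lists give positions that passed the authors' filters on methylation rate and read number. They hold neither value, so the depth is unknown, and an adenosine missing from a list can be unmethylated, unexpressed or thinly covered. The cerebrum list was the longer one, and with 1 library per tissue no difference between the tissues was tested. The cerebrum list was deposited under a name that also holds an abbreviation of cerebellum. Tissues were taken from the sample labels and set against marker genes. Of 14 forebrain genes, 3 carried a site in cerebellum and 9 in cerebrum. Of 14 hindbrain genes, 7 carried a site in cerebellum and 6 in cerebrum, with En2, a midbrain and hindbrain transcription factor, at 9 and 0 sites and En1 at 6 and 0. Other members were level or went the other way, with Zic4 at 4 and 24 sites, Zic1 at 19 and 22, Meis1 at 14 and 14, Barhl2 at 4 and 4 and Gbx2 at 3 and 3. Hindbrain genes without a site in cerebellum included Atoh1 and Pax2, and forebrain genes without one in cerebrum included Tbr1 and Lhx2.

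On GRCm38 the ligand genes lie at chr19:41600257-41743665 (Slit1, minus strand), chr5:47983138-48307733 (Slit2, plus strand) and chr11:35121224-35708507 (Slit3, plus strand). The receptor genes lie at chr16:72308306-73046095 (Robo1, plus strand), chr16:73891839-74411825 (Robo2, minus strand) and chr9:37415669-37433246 (Robo3, minus strand). The effector genes lie at chr10:121780991-122047315 (Srgap1), chr1:131285251-131527352 (Srgap2) and chr6:112717971-112947266 (Srgap3), all on the minus strand.

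The bases around 5 groups of sites carry the main results below and are shown first. All bases are those of GRCm38 (mm10), read 5′ to 3′ on the gene's strand, and capitals mark the 5-mer with the listed adenosine in its middle. The first group is a pair of coding sites at the same aligned codon of Robo1 and Robo2.
Robo1 codon 49, chr16:72742206-72742226, plus strand: gccactctGAACTgtaaagcc
Robo2 codon 51, chr16:74352777-74352797, minus strand: accactctGAACTgtaaagca

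The second group opens with a coding position of the last exon that was listed in all 3 srGAP genes, but only over both libraries together. Neither library listed it in all 3. A position 19 nt before the end of the stop codon, listed in Srgap1 and Srgap2, follows.
Srgap1 codon 991, chr10:121785674-121785694, minus strand: gtcgtgctAGACActttggag
Srgap2 codon 975, chr1:131289639-131289659, minus strand: gtggttctGGACAccttggaa
Srgap3 codon 993, chr6:112723100-112723120, minus strand: gtggtgctGGACAccctggag
Srgap1 codon 1080, chr10:121785407-121785427, minus strand: ggtcccacAGACAagtcttgc
Srgap2 codon 1066, chr1:131289366-131289386, minus strand: caggccacTGACAagtcttgt

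The third group holds, for each gene with such a site, the DRACH site of both lists that lies nearest to the stop codon. Each lies in the 3′ UTR.
Srgap1, 3 nt after the stop codon, chr10:121785385-121785405, minus strand: cgatgtaaAAACAaaggtcac
Srgap2, 32 nt after the stop codon, chr1:131289315-131289335, minus strand: agacaaggAGACTggccgttt
Srgap3, 9 nt after the stop codon, chr6:112722769-112722789, minus strand: gacctgcaGGACTggtgacac
Robo1, 112 nt after the stop codon, chr16:73044464-73044484, plus strand: atcagaatGGACAagttgccg
Robo2, 11 nt after the stop codon, chr16:73895805-73895825, minus strand: ctgagaggGGACAtacaaaga

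The fourth group holds the DRACH sites of both lists on the first exons of Robo1 and Robo2. This group was singled out after its positions had been seen.
Robo1, chr16:72663600-72663620, plus strand: gaacctagAGACTgttctccc
Robo1, chr16:72663988-72664008, plus strand: tgccctgcAAACTcttggcgg
Robo1, chr16:72664003-72664023, plus strand: tggcggatTGACTcacgttgc
Robo1, chr16:72664127-72664147, plus strand: ctacccgaGGACAatgatcgc
Robo2, chr16:74410991-74411011, minus strand: taaacttcGGACCtacctctt
Robo2, chr16:74411302-74411322, minus strand: agtttgtgGAACActttctag
Robo2, chr16:74411508-74411528, minus strand: gaaaccagAGACTccgaggga

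The fifth group holds the closest pair of DRACH sites in each gene where both fit into 30 bases, with the adenosines 4 to 8 nt apart. In Robo1 and in Srgap1 the 5-mers of the pair share a base.
Slit1, coding sequence, chr19:41602263-41602279, minus strand: atGAACTgcaGGACTtc
Robo1, 3′ UTR, chr16:73044663-73044675, plus strand: aaGAACAGACCaa
Robo2, 5′ UTR, chr16:74410997-74411012, minus strand: ctAAACTtcGGACCta
Srgap1, coding sequence, chr10:121785455-121785467, minus strand: aaAAACAAACCct
Srgap2, 3′ UTR, chr1:131287235-131287248, minus strand: atGAACTGGACAgt
Srgap3, coding sequence, chr6:112723139-112723152, minus strand: agAGACAGAACAct

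The 3 families differed widely in how many sites they carried. The srGAP genes held most of the exonic DRACH sites, Robo1 and Robo2 held most of all sites, and the Slit genes and Robo3 held few. In cerebellum, 7 of the 9 genes had a site and 5 had an exonic DRACH site, beside 41.2% and 34.4% of all annotated coding genes. In cerebrum, all 9 had a site and 7 had an exonic DRACH site, beside 57.4% and 44.4% of coding genes. Robo1 had 81 sites in cerebellum and 217 in cerebrum, and ranked 70 of 8273 and 49 of 11538 coding genes with a site. Robo2 had 56 and 191 sites, Srgap3 had 51 and 71, Srgap1 had 42 and 71, and Srgap2 had 28 and 80. Slit1 had 4 and 11 sites, Slit2 had 5 and 18, Slit3 had 0 and 24, and Robo3 had 0 and 1. Slit3 and Robo3 were therefore listed in cerebrum only, as were 29.7% of the coding genes with a site in either list.

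**Figure D1:**
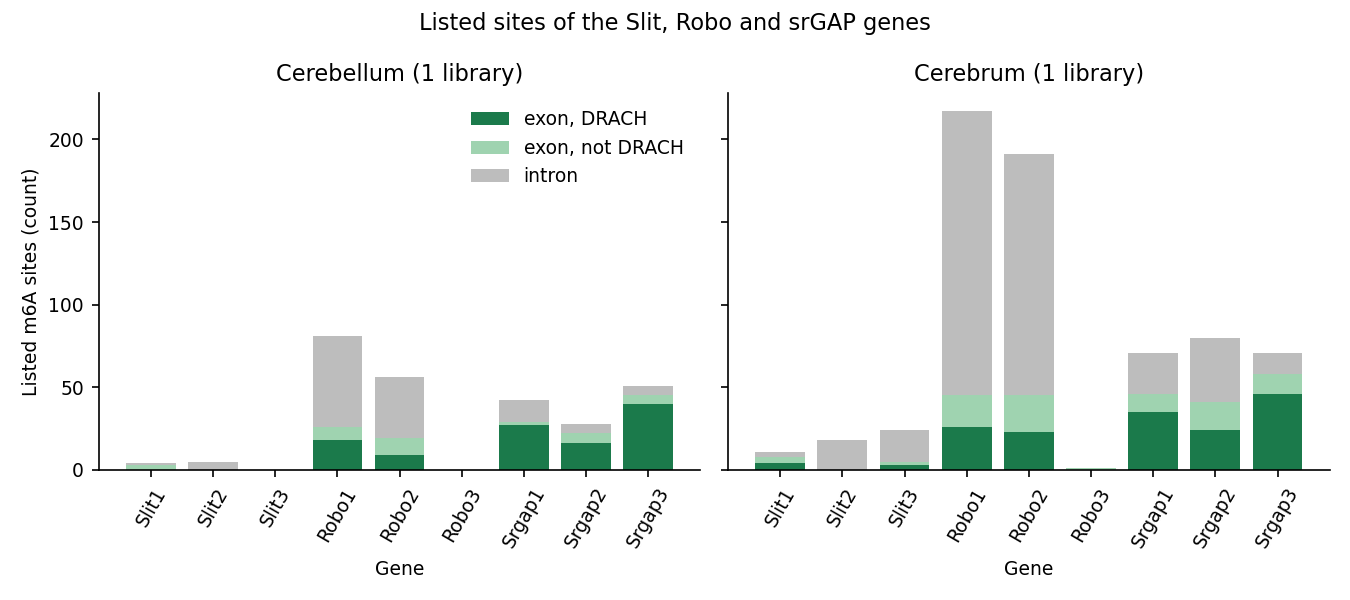
Number of listed m6A sites (y axis) in each of the 9 genes (x axis) in the cerebellum library and the cerebrum library, split into exonic DRACH sites, other exonic sites and intronic sites. Robo1 and Robo2 reach 217 and 191 sites in cerebrum, mostly in introns, while most sites of Srgap3 are exonic DRACH sites in both libraries.

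The exonic DRACH sites were shared between the lists far more than the rest. Of the 110 such sites in cerebellum, 104 (94.5%, 95% Wilson interval 88.6 to 97.5) were also listed in cerebrum, beside 83.5% (83.1 to 83.8) in all other coding genes. In the other direction, 104 of 161 (64.6%, 56.9 to 71.6) cerebrum sites of this kind were also in cerebellum, beside 48.5% (48.1 to 48.9). Srgap3 had 40 and 46 exonic DRACH sites in cerebellum and cerebrum with 38 in both, Srgap1 had 27 and 35 with 26 in both, Srgap2 had 16 and 24 with 15 in both, Robo1 had 18 and 26 with 16 in both, and Robo2 had 9 and 23 with 9 in both. Every cerebellum exonic DRACH site of Robo2 was thus also a cerebrum site. Of these 5 genes, Robo2 alone had at least 2-fold more exonic DRACH sites in cerebrum, as did 40.5% of the coding genes with such a site in cerebellum, and none had 2-fold fewer, as did 5.99%. These intervals, like all below, cover counting error over sites and nothing else.

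A count of sites grows with transcript length, so the share of DRACH adenosines that were listed was taken on the longest coding isoform of each gene. Srgap3, also known as WRP, a GTPase-activating protein for Rac1, had 40 of 189 listed in cerebellum (21.2%, 15.9 to 27.5) and 45 of 189 in cerebrum (23.8%, 18.3 to 30.4). It ranked 279 of 6494 and 555 of 8362 genes with 20 or more DRACH adenosines and a listed one. Srgap1 followed with 14.8% (10.4 to 20.7) and 19.2% (14.2 to 25.6), Robo1 with 9.70% (6.06 to 15.2) and 15.2% (10.5 to 21.4), and Srgap2 with 8.56% (5.34 to 13.4) and 11.8% (7.90 to 17.2). Neighbours in this order had overlapping intervals. All other coding genes with a site stood at 4.22% and 7.21% together, and the median gene of the ranking stood at 4.55% and 6.67%. Robo2 lay close to that level, with 3.24% (1.49 to 6.89) in cerebellum and 7.03% (4.15 to 11.7) in cerebrum. Slit1 had 4 of 111 listed (3.60%, 1.41 to 8.90) and Slit3 had 3 of 123 (2.44%, 0.833 to 6.93), all in cerebrum. Slit2 had none of 217 and Robo3 none of 69 listed in either library.

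**Figure D2:**
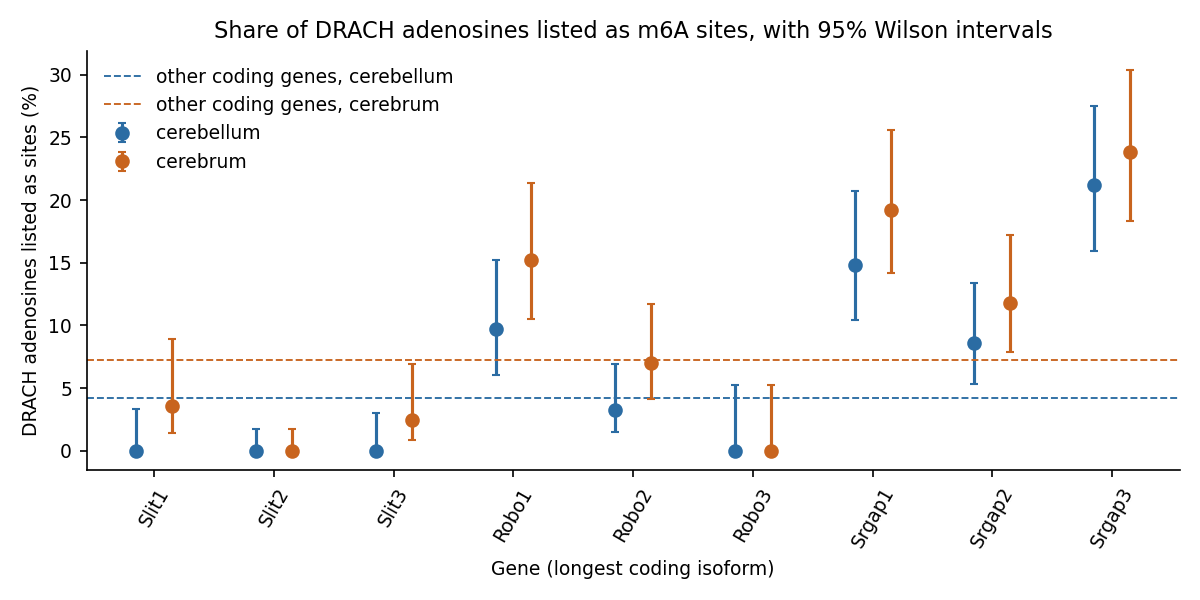
Percentage of the DRACH adenosines of the longest coding isoform that were listed as sites (y axis) for each gene (x axis) and library, with 95% Wilson intervals as bars and the value of all other coding genes with a site as dashed lines. Srgap3 stands highest at 21.2% and 23.8%, and Slit2 and Robo3 lie at 0 in both libraries.

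Among the ligands, listed sites on the mature transcript were rare. Slit1 carried its 4 DRACH sites in the coding sequence, 1 in exon 7, 1 in exon 34 and 2 in exon 35 of 36, and all 4 were in cerebrum. The 2 sites of exon 35, at 41602267 and 41602275 on chromosome 19, are the pair printed above and lie in codons 1322 and 1319. Its 3′ UTR of 1212 nt held 13 DRACH adenosines, of which 0 were listed, yet 3 sites outside DRACH were listed there. Of these, a CCATC at 80 nt and a TCATC at 86 nt after the stop codon were in both lists. The APPRIS principal isoform of Slit1 has a shorter 3′ UTR of 192 nt. Slit3 carried its 3 DRACH sites within a short stretch of its 365 nt 3′ UTR, at 167, 190 and 241 nt after the stop codon, again in cerebrum, and they made up 3 of the 11 DRACH adenosines there. The base of the first of these lies in a masked repeat. Slit1 and Slit3 each had 2 further coding sites outside DRACH, all in cerebrum. Slit2, the ligand with the longest isoform (9960 nt) and a 3′ UTR of 3492 nt, had 81 DRACH adenosines in that UTR and no exonic site in either library. Its 5 cerebellum and 18 cerebrum sites were all intronic.

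Behind the stop codon, members of a family differed as well as the families. Over the 3 srGAP genes, 67 of 291 DRACH adenosines of the 3′ UTR (23.0%, 18.6 to 28.2) were listed in cerebellum and 79 (27.1%, 22.4 to 32.5) in cerebrum. Over the 3 Slit genes these were 0 of 105 and 3 of 105 (2.86%, 0.976 to 8.07). Over the 3 Robo genes they were 15 of 126 (11.9%, 7.35 to 18.7) and 21 of 126 (16.7%, 11.2 to 24.1). These pooled shares hide unlike members: Robo1 had 25.6% and 30.8%, above Srgap1 with 22.4% and 26.5% and Srgap2 with 11.8% and 16.1%, while Slit3 had 3 of 11 (27.3%, 9.75 to 56.6) in cerebrum. Slit2 alone supplied 81 of the 105 Slit adenosines. All other coding genes stood at 5.14% and 8.53%. Since expression was not measured in these files, few sites in a gene and few transcripts of it cannot be told apart, and fewer cells of a type and less RNA per cell cannot either.

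The srGAP genes share an architecture, an F-BAR domain that bends membrane, a GTPase-activating domain and an SH3 domain, and each ends in a last exon of more than 4 kb that holds the last part of the coding sequence and the whole 3′ UTR (4785 nt in Srgap1, 4490 nt in Srgap2, 5231 nt in Srgap3). This exon carried 88 of the 95 srGAP sites on coding isoforms in cerebellum (92.6%, 85.6 to 96.4) and 112 of 138 in cerebrum (81.2%, 73.8 to 86.8), beside 72.4% and 69.4% in other coding genes. Within it, the genes placed their sites differently. In Srgap1, 20 of the 26 DRACH adenosines in the first 1000 nt of the 3′ UTR were listed in cerebellum (76.9%, 57.9 to 89.0) and 21 in cerebrum (80.8%, 62.1 to 91.5). In other coding genes with a site, 8.23% and 13.6% of the DRACH adenosines in this stretch were listed. Beyond 1000 nt, Srgap1 had only 2 of 72 listed in cerebellum and 5 of 72 in cerebrum.

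Listed DRACH adenosines of Srgap3 ran from 9 to 4661 nt of its 3′ UTR of 4817 nt, with a wide gap given below. In the first 1000 nt, 14 of 30 DRACH adenosines (46.7%, 30.2 to 63.9) were listed in cerebellum and 15 of 30 (50.0%, 33.2 to 66.8) in cerebrum. Beyond it, 20 of 70 (28.6%, 19.3 to 40.1) and 23 of 70 (32.9%, 23.0 to 44.5) were listed, where other coding genes had 2.83% and 4.74%. The bin from 2001 to 3000 nt held 2 listed of 14, and that from 3001 to 4000 nt held 11 of 23. The last sites lay at 4611 nt in both libraries and at 4661 nt in cerebrum. A stretch of 1015 nt without any listed DRACH adenosine ran from 1235 to 2250 nt after the stop codon.

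Srgap2, which acts in neuronal migration and spine maturation, had a split pattern. In the first 1000 nt, 4 of 23 DRACH adenosines were listed in cerebellum and 6 of 23 in cerebrum. After a single site at 1234 nt in cerebellum, 879 nt passed without one, and a second group of 8 of 19 followed between 2001 and 3000 nt. This second group opened with the pair at 2113 and 2118 nt printed above, a GAACT followed directly by a GGACA, and both adenosines were in both lists. No DRACH adenosine past 3069 nt was listed.

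**Figure D3:**
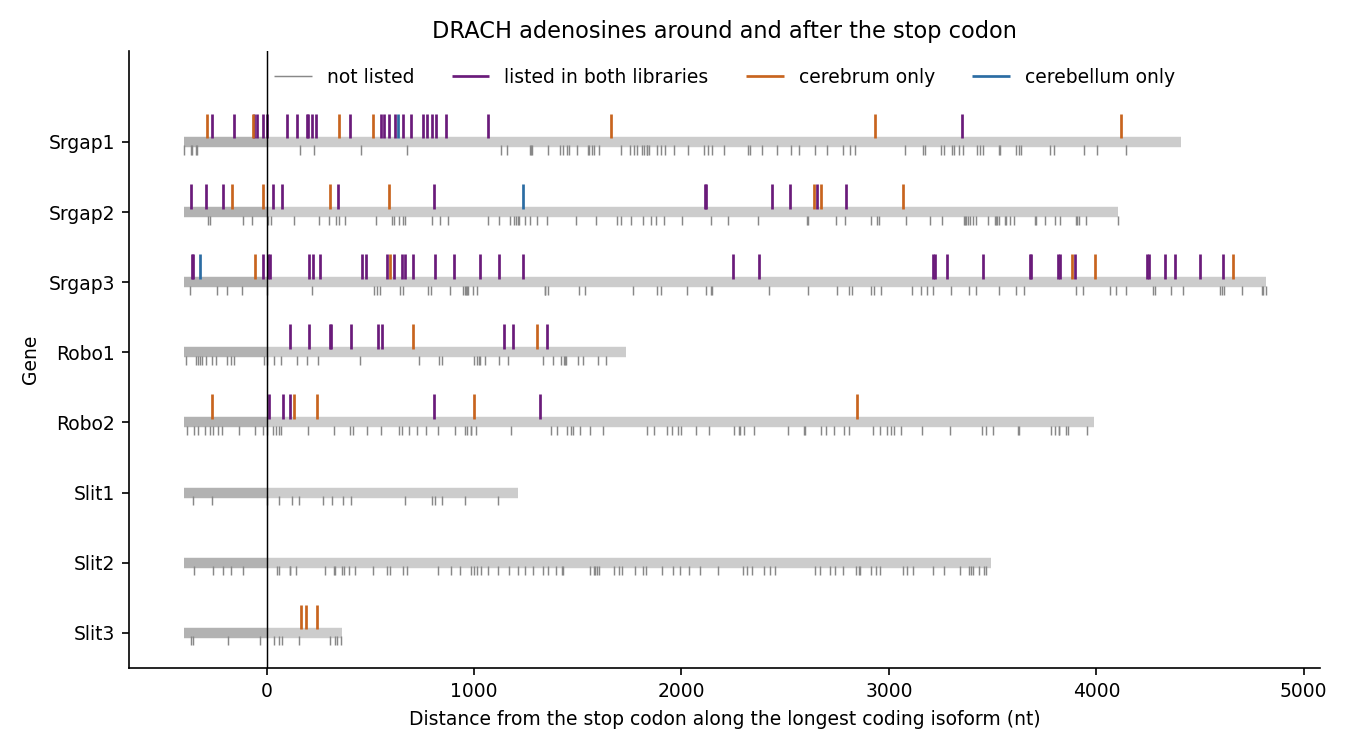
DRACH adenosines from 400 nt before to the end of the 3′ UTR of the longest coding isoform, by distance from the stop codon in nt (x axis), for 8 of the 9 genes (rows). Coloured ticks above a row are listed adenosines by library, grey ticks below it are DRACH adenosines in neither list, and the dark part of a row is coding sequence. Srgap1 sites crowd into the first 1000 nt, Srgap2 sites fall into an early and a late group, Srgap3 sites reach 4661 nt, and the row of Slit2 holds grey ticks only.

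The coding DRACH sites of the srGAP genes lay mostly in the same exon. Of all their coding sites, DRACH or not, 3 of 17 in cerebellum and 16 of 35 in cerebrum lay in internal exons. In the coding part of the last exon, 12 of 32 DRACH adenosines were listed in cerebellum (37.5%, 22.9 to 54.7) and 16 of 32 in cerebrum (50.0%, 33.6 to 66.4), beside 8.49% and 15.3% in other coding genes. In all other coding exons together, 1 of 207 and 2 of 207 were listed, beside 2.50% and 4.34%. Srgap1 had 5 and 7 DRACH sites of this kind in the last exon, Srgap2 had 3 and 5, and Srgap3 had 4 and 4. The stretch encodes the C-terminal tail that follows the SH3 domain.

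Coding sequences of the paralogs were aligned through their proteins, and a position counted as a site if either library listed it. On this count, 5 pairs of sites fell on the same base of the same aligned codon. Of these, 3 pairs belong to the single position listed in all 3 srGAP genes, codon 991 of Srgap1 (AGACA, cerebrum), codon 975 of Srgap2 (GGACA, both libraries) and codon 993 of Srgap3 (GGACA, cerebellum). The Srgap1 and Srgap3 sites of this position shared no library. The listed adenosine is the middle base of the codon in each gene. The next pair joined codon 1080 of Srgap1 (AGACA, both libraries) and codon 1066 of Srgap2 (TGACA, cerebrum), each 19 nt before the end of the stop codon. Srgap3 had a GGACA site at that same distance, in codon 1094, at 112722807 and in both libraries, although its codon was not aligned with the others. The fifth pair joined codon 49 of Robo1 and codon 51 of Robo2, in exon 2 of both genes, and was listed in both libraries in both genes.

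These shared positions, counted over both libraries, stood among many aligned adenosines at which nothing was listed. Robo1 and Robo2 had 25 aligned pairs of DRACH adenosines, of which both members were listed at 1 and a single member at 1. Srgap1 and Srgap2 had 28 such pairs with both members listed at 2 and a single member at 2, Srgap1 and Srgap3 had 29 with 1 and 0, and Srgap2 and Srgap3 had 25 with 1 and 2. Among the Slit genes no aligned position was listed in more than 1 gene, over 35, 38 and 33 aligned pairs. If neighbouring codons were allowed, 7 pairs were counted in place of 5.

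Robo1 and Robo2 carried many of their exonic sites at the 5′ end. Of the Robo sites on coding isoforms, 8 of 41 in cerebellum (19.5%, 10.2 to 34.0) and 23 of 69 in cerebrum (33.3%, 23.4 to 45.1) lay in a 5′ UTR, beside 2.83% and 3.25% in all other coding genes. The first exon of Robo1 (chr16:72663149-72664194, 1046 nt) held 20 DRACH adenosines, all in its 5′ UTR. In cerebrum 9 of them were listed (45%, 25.8 to 65.8) and in cerebellum 4 (20%, 8.07 to 41.6), and all 4 were in both libraries. In other coding genes 2.08% and 3.69% of 5′ UTR DRACH adenosines were listed in cerebellum and cerebrum. The Robo1 sites of both libraries lay 530, 142, 127 and 3 nt before the start codon.

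In Robo2, 6 annotated transcripts begin with overlapping first exons that span chr16:74410852-74411825 (974 nt). This span held 17 listed sites, 6 in cerebellum and 16 in cerebrum. Of its 21 DRACH adenosines, 3 were listed in cerebellum (14.3%, 4.98 to 34.6) and 9 in cerebrum (42.9%, 24.5 to 63.5), and the 3 were in both libraries. They lay 89, 400 and 606 nt upstream of the start codon of the longest isoform, and the sites at 74411312 and 74411518 lie outside every isoform used for the regions, on exons of other transcripts. The longest isoform begins inside this span, and its 5′ UTR holds a single DRACH adenosine, which was in neither list. The 2.08% and 3.69% of other coding genes are shares over longest isoforms, and none was taken over such a span. Srgap2 and Srgap3 also had 5′ UTR sites, with 2 of 13 DRACH adenosines listed in each library in Srgap2 and 1 of 11 and 3 of 11 in Srgap3. Srgap1 had 0 of 4 and the 3 Slit genes 0 of 28.

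**Figure D4:**
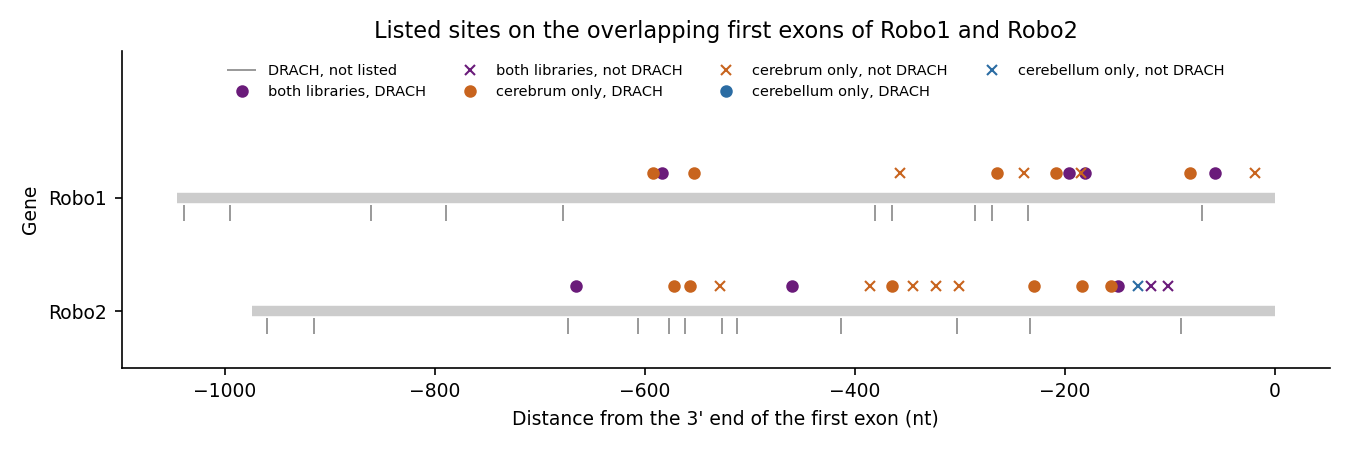
Listed sites on the overlapping first exons of Robo1 and Robo2, by distance from the 3′ end of the exon in nt (x axis). Circles are DRACH sites, crosses are other sites, colours give the library, and grey ticks are DRACH adenosines in neither list. In each gene 9 DRACH adenosines were listed, of which 4 in Robo1 and 3 in Robo2 were in both libraries.

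In the coding sequence, 2 of 106 DRACH adenosines of Robo1 and 1 of 103 of Robo2 were listed in cerebellum, and 4 in each gene in cerebrum. Exon 2 had the GAACT site described above in both genes, and the other coding DRACH sites lay in exons 21 and 25 of Robo1 and exons 20, 24 and 26 of Robo2. In the 3′ UTR of Robo1 (1733 nt), 10 of 39 DRACH adenosines (25.6%, 14.6 to 41.1) were listed in cerebellum and 12 (30.8%, 18.6 to 46.4) in cerebrum, from 112 to 1352 nt after the stop codon. The 3′ UTR of Robo2 (3987 nt) had 5 of 81 (6.17%, 2.67 to 13.6) and 9 of 81 (11.1%, 5.96 to 19.8) listed, of which the site at 2848 nt lay 1532 nt from the next. In its first 1000 nt, 4 of 27 (14.8%, 5.92 to 32.5) and 6 of 27 (22.2%, 10.6 to 40.8) were listed. Other coding genes with a site had 8.23% and 13.6% in this stretch. The APPRIS principal isoform of Robo2 has a shorter 3′ UTR of 1474 nt. Robo3, the divergent receptor known from axons that cross the midline, had a single listed site, a CCAAT in exon 11 in cerebrum, and no DRACH site.

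In cerebellum 123 of the 267 sites were intronic (46.1%, 40.2 to 52.1) and in cerebrum 435 of 684 (63.6%, 59.9 to 67.1), beside 22.2% and 29.8% in all other coding genes. These sites were of another kind. Only 8 of 123 (6.50%, 3.33 to 12.3) and 32 of 435 (7.36%, 5.26 to 10.2) were DRACH, where exonic sites of the same genes were DRACH in 76.4% (68.8 to 82.6) and 64.7% (58.5 to 70.3). In other coding genes 29.5% and 22.1% of intronic sites were DRACH. Of the 115 intronic sites outside DRACH in cerebellum, 7 were also in cerebrum (6.09%, 2.98 to 12.0), beside 9.74% in other coding genes. Of the 8 intronic DRACH sites in cerebellum, 1 was also in cerebrum (12.5%, 2.24 to 47.1), beside 69.6% (68.3 to 70.9).

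Robo1 and Robo2 supplied 92 of the 123 intronic cerebellum sites and 318 of the 435 in cerebrum. Per 100 kb of intron, Robo2 had 7.24 sites in cerebellum and 28.5 in cerebrum, Robo1 had 7.53 and 23.6, Srgap2 had 2.56 and 16.7, and Srgap1 had 5.03 and 9.67. Srgap3 had 2.72 and 5.90, Slit2 had 1.59 and 5.72, Slit3 had 0 and 3.26, and Slit1 had 0.726 and 2.18. The median over genes with at least 100 kb of intron and such a site was 1.66 in cerebellum and 3.80 in cerebrum, and Robo2 ranked 68 of 1378 in cerebrum. Intron 2 of Robo2 (305613 nt) alone held 126 sites, 27 in cerebellum and 101 in cerebrum, with 2 in both. Intron 2 of Robo1 (162177 nt) held 68 sites with 0 in both, and a further 138 intronic sites of Robo1 lay upstream of its longest complete isoform, in introns of transcripts that start earlier.

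**Figure D5:**
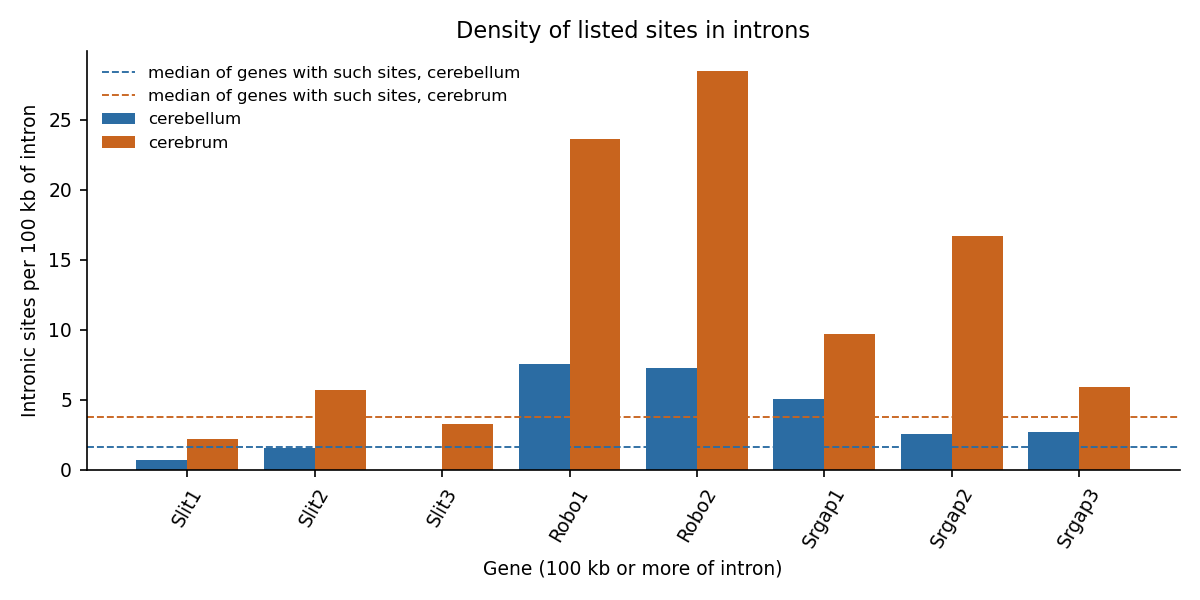
Listed intronic sites per 100 kb of intron (y axis) for the 8 genes with at least 100 kb of intron (x axis) in each library, with the median over coding genes that have such sites as dashed lines. Robo2 and Robo1 stand highest in cerebrum at 28.5 and 23.6.

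Some intronic sites outside DRACH came in pairs 6 nt apart, at close to the share found in other coding genes. Exactly 6 nt separated 7 pairs in cerebellum and 11 in cerebrum, while 5 nt separated 0 and 2 pairs and 7 nt separated none. Pairs 5 or 7 nt apart were not counted in other coding genes. In cerebellum 14 of 115 such sites were in a 6 nt pair, beside 12.1% in other coding genes, and in cerebrum 22 of 403, beside 6.45%. The adenosine stood in ATC in 19.1% and 15.9% of these sites, beside 23.8% and 16.4%. The most frequent 5-mer outside DRACH was CCATC, with 16 sites of which 15 were intronic. The CCATC and TCATC of the Slit1 3′ UTR were 6 nt apart as well.

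Among DRACH 5-mers, GAACT was the most frequent at listed sites with 28, followed by GGACA with 24, GGACT with 23 and AAACT with 20. On the longest isoforms, 25.6% of GAACT (17.3 to 36.3), 21% of GGACA (14.2 to 30), 20.6% of GGACT (13.8 to 29.7) and 19.5% of AAACT (12.4 to 29.4) were listed in either library. In other coding genes these shares were 17.3%, 12.4%, 19.8% and 10.2%. None of the 75 TGACC, 55 TAACA and 28 TAACC of these isoforms was listed, beside 1.74%, 1.41% and 0.569% in other genes. A TGACC was listed in Robo2, on a first exon outside its longest isoform.

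The reference held G in place of A at 6 listed positions. The authors also called sites on a PWK version of mm10, and the base of the PWK allele was not looked up here. The 6 are shown because the reference alone offers no adenosine there. The Srgap3 position in the 3′ UTR, 281 nt after the stop codon, was in both libraries. Read with A in the middle, its 5-mer, the AGGCA of Srgap1 and the TAGCA of Robo1 are DRACH, and the other 3 are not.
Srgap3, 3′ UTR, chr6:112722497-112722517, minus strand: taagattgAGGCAgatgctta
Srgap3, intron, chr6:112786815-112786835, minus strand: tattcatcTAGTCcactcatt
Srgap1, intron, chr10:122046435-122046455, minus strand: actaatgaAGGCAacctaatt
Robo1, intron, chr16:72566321-72566341, plus strand: acctacccACGCCttacctat
Robo1, intron, chr16:72780543-72780563, plus strand: cttgcataTAGCAattctctg
Robo1, intron, chr16:72861642-72861662, plus strand: ttcatatgAAGTTgggctttt

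The Srgap3 intron position was in cerebellum, and the Srgap1 and Robo1 positions were in cerebrum. Slit2, Slit3 and Robo2 host the microRNA genes Mir218-1, Mir218-2 and Mir691, in this order, in their introns. No listed site lay within 1000 nt of these hairpins, and the nearest ones were 2723, 37781 and 1829 nt away.

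Other genes of the pathway formed a list of 34, with Robo4, Nell2, co-receptors, heparan sulfate genes and effectors. They had listed sites in 26 genes in cerebellum and in 28 in cerebrum, beside 41.2% and 57.4% of all coding genes. Their DRACH adenosines were listed at 6.35% (5.52 to 7.29) and 9.66% (8.64 to 10.8), while the 9 genes stood at 7.35% (6.11 to 8.82) and 10.3% (8.82 to 12.0). Dcc, a netrin receptor that also binds Robo1, had 74 and 215 sites and is counted in the netrin list below as well. Dag1, the dystroglycan that binds Slits, had 40 and 51 sites, of which 34 and 40 were exonic DRACH sites. Enah, a regulator of actin that binds Robo1, had 41 and 67. Of the 20 genes of the list with an exonic DRACH site in cerebellum, 7 had at least 2-fold more in cerebrum, beside the 40.5% of coding genes given above. The Eph receptors, another family of guidance receptors, stood at 8.73% (7.25 to 10.5) and 14.9% (13.0 to 17.1), and a list of 9 netrins and netrin receptors at 4.73% (3.67 to 6.06) and 6.52% (5.27 to 8.04).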

How the data were processed

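Each deposited file lists the chromosome, position and strand of the GLORI sites of 1 library, and its unit is a genomic position. Per the paper's methods, the authors ran GLORI-tools on read mappings to the mm10 and PWK-mm10 genomes, merged the calls and retained sites of a rate over 0.1 with more than 8 reads. The files carry 0 rates and 0 read counts, so the depth is unknown and tests on rates were not possible.

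Gene models were GENCODE M21 on GRCm38, a release other than the paper's. A site was assigned to the longest isoform covering it, provided that its coding sequence is complete and it has both UTRs, then to other exons, then to introns. Shares carry 95% Wilson intervals. Coding sequences were aligned through translated proteins with mafft 7.526. Python 3.11.15, pysam 0.24.0, samtools 1.23.1, scipy 1.17.1 and matplotlib 3.10.9 were used. On simulated data, 1000 of 1000 regions and 989 of 989 5-mers were recovered. Distances from the stop codon count from its last base, and distances from the Robo2 start codon are genomic.

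The 9 genes, the gene lists and the alternatives were chosen with earlier results of these data known. Sites shown with their bases, apart from the first exon sites of Robo1 and Robo2, followed a rule: in each gene the DRACH site nearest the stop codon, in both lists where possible, aligned coding sites of paralogs, sites without A in the reference and the closest DRACH pair. The Slit1 site nearest the stop codon is shown within its closest pair, and that of Slit3, found in 1 list, and closest pairs wider than 30 bases are not printed. En1, En2, Zic1, Zic4, Meis1, Barhl2, Gbx2, Atoh1, Pax2, Tbr1, Lhx2, Dcc, Dag1 and Enah were named after their counts had been seen.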

Additional observations from a re-analysis of the deposited data

How the results depend on the processing

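No paired analysis was possible because each tissue had 1 library, and no library could be left out. Which sites were counted moved the values most. With exonic sites alone, the 9 genes had 144 sites in cerebellum and 249 in cerebrum, and with DRACH sites alone 118 and 193. The share of sites also found in the other list moved from 47.6% to 82.6% with exonic and 89.0% with DRACH sites in cerebellum, and from 18.6% to 47.8% and 54.4% in cerebrum. The DRACH share moved from 44.2% to 76.4% in cerebellum and from 28.2% to 64.7% in cerebrum with exonic sites alone. With DRACH sites alone, the cerebrum share in coding sequence moved from 27.7% to 19.6% and that in 3′ UTRs from 57.3% to 68.0%. The listed share of DRACH adenosines moved from 7.35% to 15.7% and from 10.3% to 19.7% when only 3′ UTRs were taken. Each of these alternatives counts fewer positions by construction. Allowing 1 nt between shared sites, reading the centre as A and taking the APPRIS principal isoform moved no share beyond its interval. Leaving out sites that lie in a further gene gave 265 and 663 sites in place of 267 and 684, the APPRIS principal isoforms gave 5 aligned pairs as before, and allowing 1 codon between aligned sites gave 7 in place of 5. Depth limits what can be read from an absent site, in the Slit genes and Robo3 above all.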
